A study of Mus musculus with 12 samples.

Results

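The microRNAs mmu-miR-26a-5p, mmu-miR-26b-5p, mmu-miR-103-3p and mmu-miR-107-3p, written below without the species prefix, are the main arms of 2 microRNA families with roles in fat cell differentiation and insulin sensitivity. They were taken by name from the table of 504 microRNA assays measured in mouse epididymal fat, and 4 of 4 were found. No measured value entered the rule, though earlier results of these data were known. All 48 values of these microRNAs were present, with threshold cycles (Ct) from 16.41 to 27.22.

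The fat came from male C57BL/6J wild-type mice, whose parents ate a standard breeding diet until mating. The control group (CD) ate a purified diet with 10% of its energy from fat. The high-fat diet held 45%. It was met through the dam in utero in the group UT, from mating to weaning in UL, and from mating until the mice were killed in WL. The experiment ended at 23 weeks in all 4 groups. For each group, RNA of 12 mice was measured by quantitative RT-PCR as 3 pooled samples. The labels do not say how mice or litters were spread over the pools, so the tests measure the spread between pools. The pools hold whole fat pad, in which fewer cells of a type and less RNA per cell cannot be told apart.

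A microRNA guides the silencing complex to messenger RNAs that pair with its seed, which represses them. MiR-26 microRNAs lie in genes of small phosphatases that act on RNA polymerase II. They are known to act on adipocyte differentiation and on brown fat genes. MiR-103 and miR-107 lie in genes of pantothenate kinases, the enzymes that start coenzyme A synthesis. They are known to rise during adipogenesis, and in obese mice to lower insulin sensitivity of fat and liver through caveolin-1, a scaffold of the insulin receptor.

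The mature sequences (RefSeq, GRCm38.p6), shown because family members differ in few bases and may be hard for an assay to tell apart, fall into 2 seed groups. Bases 2 to 8, the seed, are in capitals.
miR-26a-5p: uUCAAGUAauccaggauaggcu
miR-26b-5p: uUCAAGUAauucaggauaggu
miR-103-3p: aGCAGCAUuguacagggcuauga
miR-107-3p: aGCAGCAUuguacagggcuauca
Counted from the 5′ end, miR-26a-5p and miR-26b-5p differed at 2 of 21 shared positions, by C11U and C21U, and the first is 1 base longer. MiR-103-3p and miR-107-3p differed at 1 of 23 positions, by G22C, at the 3′ end and far from the seed. Among 1679 mature mouse microRNAs of the sequence table, 2 carried the seed UCAAGUA and 2 the seed GCAGCAU (0.119% each), and these are the 4 described here.

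MiR-26a-5p comes from 2 hairpins with the same mature sequence, at chr9:119031811-119031832 on the plus strand within the span of Ctdspl and at chr10:126995543-126995564 on the plus strand within Ctdsp2. MiR-26b-5p lies at chr1:74394324-74394344 on the plus strand within Ctdsp1. MiR-103-3p also comes from 2 hairpins, at chr11:35782447-35782469 within Pank3 and at chr2:131288103-131288125 within Pank2, both on the plus strand. MiR-107-3p lies at chr19:34820700-34820722 on the minus strand within Pank1. The table of genes gives spans only, so exons and introns were not assigned. An assay for miR-26a-5p or miR-103-3p reads the sum of its 2 hairpins.

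Levels are given as the relative level, found by subtracting the Ct of the assay from the average Ct of the 466 microRNAs present in every pool. It is on the log2 scale in cycles, and a higher value means more template if assays amplify alike. The pools WL 3 and UT 2 deviated most across all microRNAs: the root mean square deviation from the group mean was 0.97 and 0.85 cycles there, against 0.39 to 0.80 in the other pools. UT 2 was only slightly above WL 2 (0.80) and UT 3 (0.78). Values without WL 3 or UT 2 are given where they matter. Of 9 listed microRNAs abundant in fat, 8 were measured, at a mean of 4.62 to 5.53 in every pool. They differed widely. The highest was let-7b-5p at 8.48 on average, while miR-365-3p lay at 2.17 and the 3p arm of miR-378 at 0.34. Markers of other tissues were also measured, with liver miR-122-5p at -0.90, endothelial miR-126a-3p at 7.47, erythroid miR-451a at 5.6 and the epithelial miR-200c-3p at 3.48.

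MiR-26a-5p, the earliest of the 4 to cross the threshold, ranked 6 of 466 with a mean relative level of 7.77. Its relative level was 7.61, 8.00 and 7.76 in CD 1, 2 and 3. The UT pools had 7.77, 7.61 and 7.94, the UL pools 7.33, 8.41 and 7.69 and the WL pools 7.67, 8.50 and 6.89. The CD and UT pools sat close together, while WL held both the highest and the lowest pool of the 12. Group means were 7.79 ± 0.20 for CD, 7.77 ± 0.16 for UT, 7.81 ± 0.55 for UL and 7.69 ± 0.81 for WL (SD, n = 3 each). Against control the log2 fold change was -0.02 in UT, 0.02 in UL and -0.10 in WL, each with an SE of 0.42 (limma adjusted p = 1, 0.995 and 0.978). The 95% confidence interval in WL ran from -1.02 to 0.81, so changes within that range in either direction were not excluded with 3 pools. Leaving out WL 3 turned the WL value to 0.31 (adjusted p = 0.986), and leaving out WL 2 made it -0.51 (adjusted p = 0.776).

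MiR-26b-5p, from a single hairpin, ranked 21 of 466 with a mean relative level of 6.67. Its relative level was 6.97, 6.68 and 5.52 in CD. The UT pools had 6.62, 6.61 and 7.06, the UL pools 6.27, 7.27 and 6.74 and the WL pools 7.28, 6.89 and 6.10. Only CD 3 lay below 6 cycles, and the ranges of all groups overlapped. Group means were 6.39 ± 0.77 for CD, 6.76 ± 0.26 for UT, 6.76 ± 0.50 for UL and 6.76 ± 0.60 for WL (SD, n = 3 each). The log2 fold change against control was 0.37 in each of UT, UL and WL (SE 0.45, limma adjusted p = 0.826, 0.995 and 0.956). These values share the control pools and rest on CD 3: without it they were -0.06, -0.07 and -0.07.

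MiR-103-3p ranked 86 of 466 with a mean relative level of 3.65, and was the only one of the 4 with a group whose pools all lay on one side of control. Its relative level was 3.76, 3.92 and 3.91 in CD. The UT pools had 2.77, 3.70 and 2.95, the UL pools 4.16, 3.56 and 3.52 and the WL pools 4.24, 3.31 and 3.98. The UT pools lay below the CD pools, UT 2 only just, while UL and WL spread over the control values. Pools separated in this way, in either direction, in 14% of 480 microRNAs in UT against CD, 7.88% of 495 in UL and 11% of 481 in WL. In Ct before scaling, UT 2 and CD 2 were level at 20.87.

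Group means of miR-103-3p were 3.86 ± 0.09 for CD, 3.14 ± 0.50 for UT, 3.75 ± 0.36 for UL and 3.84 ± 0.48 for WL (SD, n = 3 each). The log2 fold change in UT was -0.72 (SE 0.35, 95% confidence interval -1.50 to 0.06), a 1.65-fold lower level that did not pass the test (limma adjusted p = 0.520). It was -0.11 in UL and -0.02 in WL (SE 0.35, adjusted p = 0.995 and 0.994). Without UT 2 the UT value was -1.0 (adjusted p = 0.273), and without UT 1 it was -0.53 (adjusted p = 0.723). Scaled to the small nucleolar RNA RNU-43 it was 0.02 (adjusted p = 0.978), a scaling that moved the median of all microRNAs in UT from -0.01 to 0.73. With the median deviation of assays neighbouring in accession order subtracted, which was added once the data had been seen, it was -0.14 (adjusted p = 0.874). Epithelial markers also lay lower in UT than in CD in 6 of 6 microRNAs (median log2 fold change -2.37), their mean level spanning 0.24 to 2.25 over the UT pools and 1.71 to 4.26 over the CD pools. Leukocyte markers had a median of -0.74, with 2 of 6 above 0, and markers of epididymis and testis one of 1.23, with 5 of 5 above 0. Fat markers had a median of -0.31, with 2 of 8 above 0. Of all microRNAs, 48.8% lay above 0 in UT against CD. The part of these cells in the miR-103-3p value was not tested.

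MiR-107-3p, which differs from miR-103-3p in a single base, came later and varied most. It ranked 238 of 466 with a mean relative level of -0.25. Its relative level was -0.22, -1.34 and -0.09 in CD. The UT pools had -0.95, -1.55 and 0.03, the UL pools -0.24, 0.85 and 1.36 and the WL pools 0.25, 1.12 and -2.23. In UL 2 of 3 pools and in WL 2 of 3 pools lay above every control pool, and WL 3 was the lowest of all 12.

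Group means of miR-107-3p were -0.55 ± 0.68 for CD, -0.82 ± 0.80 for UT, 0.66 ± 0.82 for UL and -0.29 ± 1.74 for WL (SD, n = 3 each). Against control the log2 fold change was 1.21 in UL (SE 0.79, 95% confidence interval -0.51 to 2.93, limma adjusted p = 0.995). It was 0.26 in WL (adjusted p = 0.978) and -0.27 in UT (adjusted p = 0.945), with the same SE. Leaving out a pool moved the WL value both ways, from -0.44 to 1.25, the latter without WL 3 (adjusted p = 0.630). The UT value ran from -0.70 to 0.09, the latter without UT 2 (adjusted p = 0.976). With neighbours in accession order subtracted the UL value was 0.62 (adjusted p = 0.993). None of these differences passed the test.

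**Figure D1:**
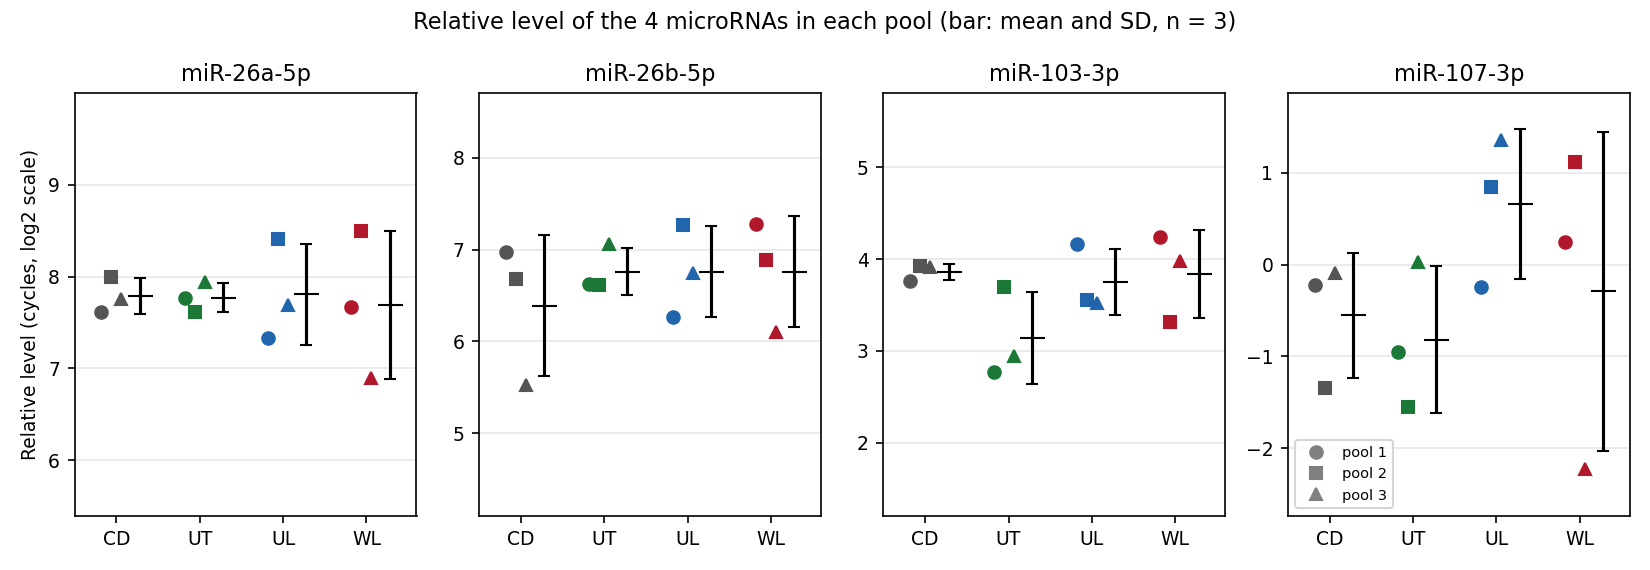
Relative level (cycles, log2 scale) of miR-26a-5p, miR-26b-5p, miR-103-3p and miR-107-3p in each of 3 pools of CD, UT, UL and WL, with the group mean and SD as a bar. All panels span the same number of cycles. The group means of miR-26a-5p stay near 7.77, with pools from 6.89 to 8.50. The UT pools of miR-103-3p lie below the CD pools, and miR-107-3p spreads from -2.23 to 1.36.

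In the comparisons with control, 0 of the 4 microRNAs passed a limma adjusted p of 0.05 in UT, UL or WL, and 0 of 4 had an unadjusted p under 0.05. Over all 504 microRNAs the share that passed was 1.39% in UT, 0.595% in UL and 0.595% in WL, and the share with an unadjusted p under 0.05 was 10.1%, 2.78% and 7.14%. With so few calls over all microRNAs, a count of 0 among 4 says little about these 4. The median log2 fold change of the 4 was -0.14 in UT, 0.20 in UL and 0.12 in WL, beside -0.01, -0.07 and -0.06 over all microRNAs. A single F test over the 4 groups gave limma adjusted p of 0.995 for miR-26a-5p, 0.951 for miR-26b-5p, 0.726 for miR-103-3p and 0.770 for miR-107-3p, where 0.397% of all microRNAs passed and 9.92% had an unadjusted p under 0.05.

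Between the high-fat groups, 0 of 4 passed in UL against UT, WL against UL or WL against UT, where 0% of all 504 microRNAs passed, and 0 of 4 had an unadjusted p under 0.05, beside 7.94%, 5.36% and 15.7% of all. The lactation period, which separates UL from UT, went with 1.48 on the log2 scale for miR-107-3p (SE 0.79, 95% confidence interval -0.24 to 3.20, limma adjusted p = 0.662) and 0.61 for miR-103-3p (SE 0.35, adjusted p = 0.708). The miR-103-3p value was 0.23 with RNU-43 as reference and 0.20 with neighbours in accession order subtracted, and the miR-107-3p value was 0.86 with the latter. The high-fat diet after weaning, which separates WL from UL, went with -0.95 for miR-107-3p (SE 0.79, adjusted p = 0.826) and 0.09 for miR-103-3p (SE 0.35, adjusted p = 0.977). Leaving out a pool gave -1.65 to 0.05 for miR-107-3p there, the latter without WL 3. WL against UT gave 0.70 for miR-103-3p (SE 0.35, 95% confidence interval -0.08 to 1.48, limma adjusted p = 0.371), the smallest adjusted p of the 24 comparisons of these microRNAs, and 0.53 for miR-107-3p (SE 0.79, adjusted p = 0.777). The WL against UT value of miR-103-3p was -0.02 with RNU-43 as reference and 0.11 with neighbours in accession order subtracted, and that of miR-107-3p was -0.19 and 0.32. For miR-26a-5p and miR-26b-5p the values between high-fat groups lay between -0.13 and 0.04. With RNU-43 as reference they were -0.81 and -0.73 in WL against UT (limma adjusted p = 0.302 and 0.366).

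The order of group means, from high to low, was UL, CD, UT, WL for miR-26a-5p. Those means lay between 7.69 and 7.81, a narrow span beside an SE of 0.42. For miR-26b-5p the means of UT, UL and WL were alike at 6.76, with CD below them. The order was CD, WL, UL, UT for miR-103-3p and UL, WL, CD, UT for miR-107-3p. No neighbours in these orders passed the test, and the widest step between neighbours was that between UL and WL for miR-107-3p (-0.95 in WL against UL).

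**Figure D2:**
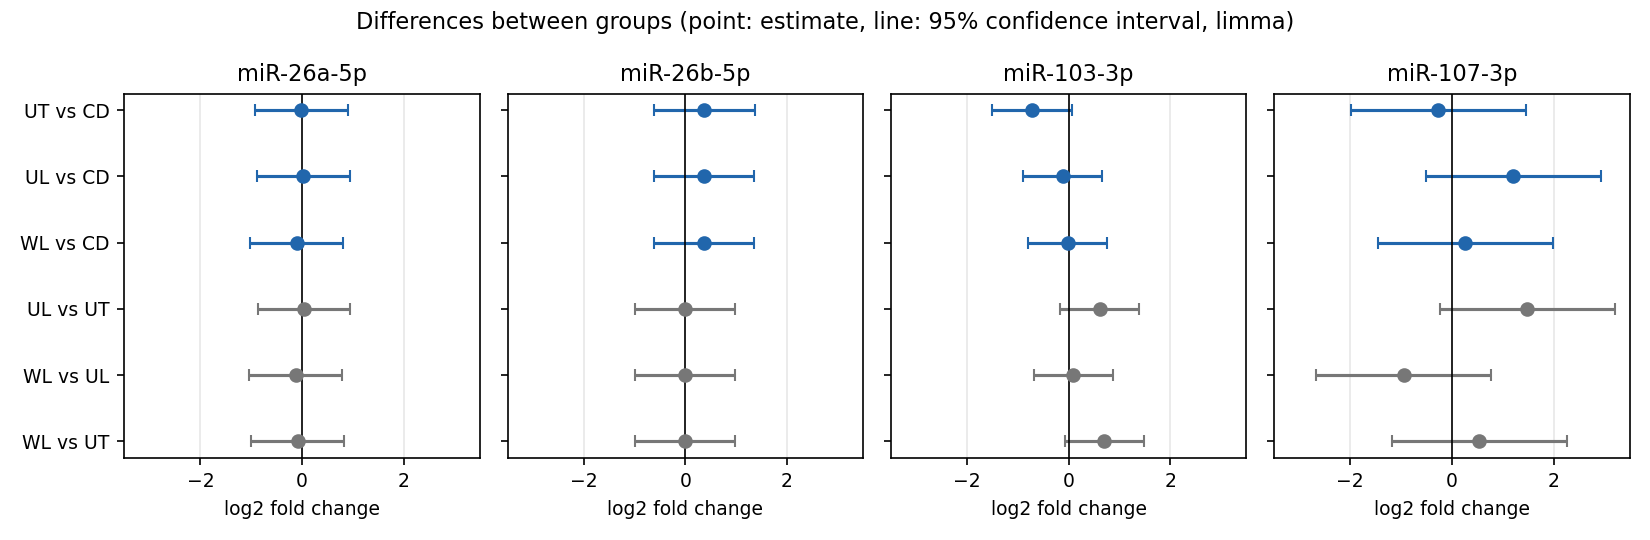
Log2 fold change with its 95% confidence interval (limma) for 6 comparisons of each microRNA. Comparisons with CD are in blue and those between high-fat groups in grey. Every interval includes 0, those of miR-103-3p in UT against CD (-1.50 to 0.06) and in WL against UT (-0.08 to 1.48) narrowly, and those of miR-107-3p are the widest.

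The 4 assays differed in how well their pools agreed. The residual SD within groups was 0.39 cycles for miR-103-3p, 0.50 for miR-26a-5p, 0.56 for miR-26b-5p and 1.09 for miR-107-3p, beside a median of 0.53 over all microRNAs. Of the 504 microRNAs, 86.1% had a smaller residual SD than miR-107-3p and 21.4% a smaller one than miR-103-3p. The SE of a comparison was accordingly 0.35 for miR-103-3p and 0.79 for miR-107-3p, so the same difference was measured less precisely for the latter.

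Differences in Ct between assays of the same pool need no scaling, and show how near-identical family members moved against each other. MiR-26a-5p came earlier than miR-26b-5p in every pool, by 1.40 ± 0.80 cycles for CD, 1.01 ± 0.14 for UT, 1.05 ± 0.10 for UL and 0.93 ± 0.62 for WL (SD, n = 3 each). In UL the gap stayed between 0.95 and 1.14 cycles although the level of each varied by about a cycle: UL 1 was the lowest and UL 2 the highest pool for both. In WL the gap ran from 0.39 to 1.61 and in CD from 0.64 to 2.24, the latter in CD 3.

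MiR-103-3p came earlier than miR-107-3p by 3.90 cycles on average, with a range of 2.16 to 6.21. The gap was 4.41 ± 0.73 cycles for CD, 3.96 ± 1.18 for UT, 3.09 ± 1.17 for UL and 4.13 ± 2.01 for WL (SD, n = 3 each). The widest gap, 6.21 cycles, was that of WL 3, and the narrowest were those of UL 3 (2.16) and WL 2 (2.19). The 2 assays, whose targets differ by G22C, thus did not keep a fixed distance. Across the 12 pools their relative levels had a Pearson r of -0.19, whereas miR-26a-5p and miR-26b-5p had 0.50 (0.37 without WL 3 and UT 2). The latter was not particular to the family. With miR-107-3p, miR-26a-5p had 0.62 and miR-26b-5p 0.41 (0.36 and 0.28 without those pools), and with miR-103-3p they had -0.44 and -0.26. These are descriptions, since all points share the pools and the same scaling.

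**Figure D3:**
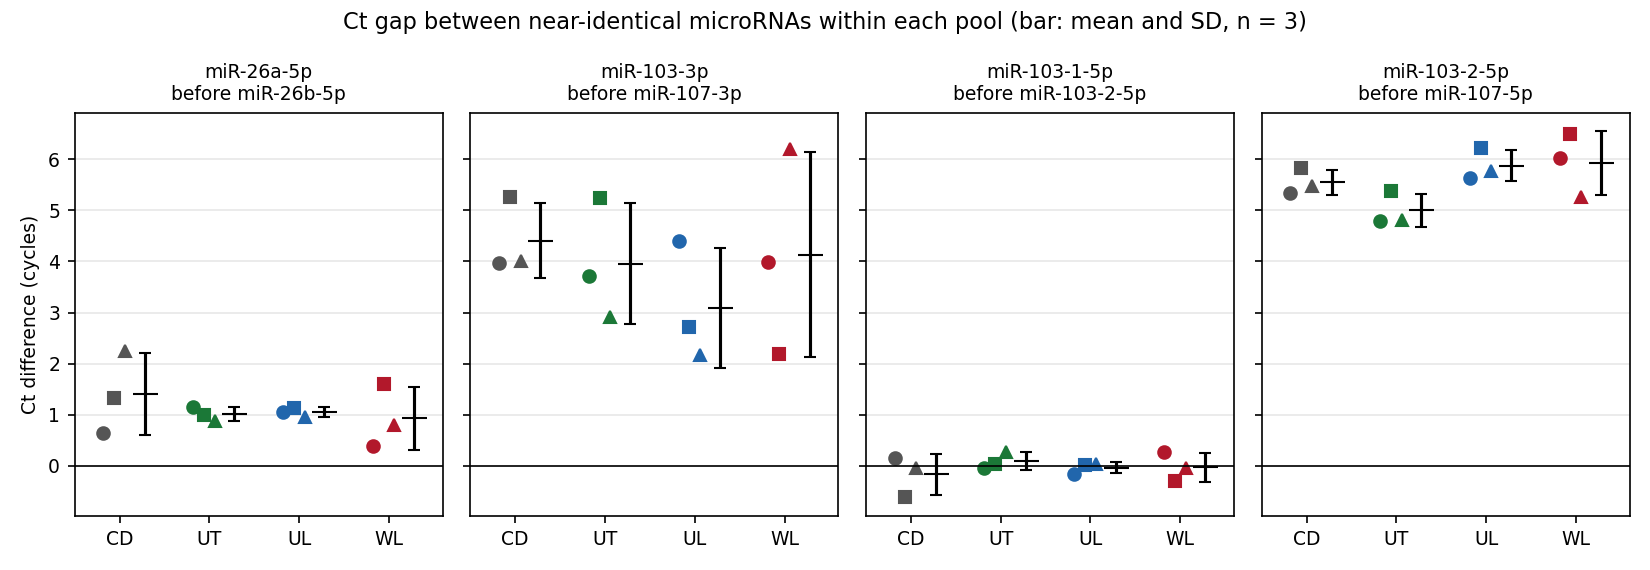
Difference in Ct (cycles) between near-identical microRNAs within each pool of CD, UT, UL and WL, with the group mean and SD as a bar; above 0 the microRNA named first came earlier. MiR-103-3p led miR-107-3p by 2.16 to 6.21 cycles, while the passenger arms miR-103-1-5p and miR-103-2-5p stayed within 0.62 cycles of each other.

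The other arm of each hairpin, which is usually degraded, was measured for 5 of 6 arms. MiR-26a-1-3p and miR-26a-2-3p, which tell the 2 miR-26a hairpins apart, came 11.26 and 11.38 cycles later than miR-26a-5p on average. Their relative levels were -3.71 ± 0.05 and -3.51 ± 0.58 for CD, -3.29 ± 0.54 and -3.80 ± 0.16 for UT, -3.39 ± 0.46 and -3.58 ± 0.81 for UL and -3.58 ± 0.32 and -3.56 ± 0.26 for WL (SD, n = 3 each). Neither hairpin therefore stood above the other in every group by this readout.

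The passenger arms of miR-103 and miR-107 are shown because each differs from the next in a single base, outside the seed, with the seed in capitals.
miR-103-1-5p: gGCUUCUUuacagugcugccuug
miR-103-2-5p: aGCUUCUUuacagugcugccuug
miR-107-5p: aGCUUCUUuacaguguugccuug
The first pair differs by G1A and the second by C16U. MiR-103-1-5p and miR-103-2-5p lay within 0.02 to 0.62 cycles of each other in every pool, and followed the guide miR-103-3p by 2.19 and 2.16 cycles on average. The deposited data do not show whether these assays tell the 2 hairpins apart. MiR-107-5p came 5.59 cycles later than miR-103-2-5p on average, with a range of 4.80 to 6.49.

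The gap from guide to passenger arm of miR-103 was compared without a test of its own. MiR-103-3p led miR-103-1-5p by 2.70 ± 0.16 cycles for CD, 1.68 ± 0.73 for UT, 2.00 ± 0.67 for UL and 2.40 ± 0.28 for WL (SD, n = 3 each), and the UT values, 0.98 to 2.43, lay below those of CD, 2.54 to 2.86. For the gap to miR-103-2-5p the UT values, 1.25 to 2.38, overlapped those of CD, 2.24 to 2.69, so the separation held for 1 of the 2 passenger arms. The share of other assay pairs whose gaps separate in this way was not counted, so the separation cannot be called unusual. The passenger arms had log2 fold changes in UT of 0.29 (miR-103-1-5p) and 0.04 (miR-103-2-5p). MiR-107-3p led miR-107-5p by 3.67 ± 0.74 cycles for CD, 2.80 ± 0.88 for UT, 4.75 ± 0.95 for UL and 4.18 ± 2.32 for WL. Of the 5 passenger arms 0 passed in UT, UL or WL against control, and 0 had an unadjusted p under 0.05. Their median log2 fold changes were 0.29 in UT, 0.32 in UL and 0.13 in WL, and the smallest limma adjusted p was 0.708, for miR-107-5p in UT (0.59, SE 0.44). In UL miR-103-1-5p had 0.59 (SE 0.44) and miR-103-2-5p 0.45 (SE 0.41), each with an adjusted p of 0.995. In WL miR-103-1-5p had 0.27 and miR-107-5p -0.25 (SE 0.44 each, adjusted p = 0.978), and in UT miR-26a-1-3p had 0.42 (SE 0.35, adjusted p = 0.768).

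MiR-103 and miR-107 belong to a larger group, the relatives of miR-15 and miR-16, that share the letters AGCAGC at the 5′ end but offset by a base, so that the seeds differ. The letters are in capitals below.
miR-107-3p: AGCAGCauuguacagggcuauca
miR-16-5p: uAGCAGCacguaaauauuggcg
miR-503-5p: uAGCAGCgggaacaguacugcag
AGCAGC on the given strand within the first 8 bases was found in 13 of 1679 mature microRNAs (0.774%), at base 1 in miR-103-3p and miR-107-3p and at base 2 in the other 8 microRNAs listed for the group. Of these 8, 7 were measured, and 0 passed the limma test in any high-fat group against control. An unadjusted p under 0.05 was reached by 0 in UT, 1 in UL and 2 in WL, beside 10.1%, 2.78% and 7.14% of all microRNAs. The median log2 fold change of the 7 was 0.48 in WL with 6 above 0, -0.03 in UL with 3 above 0 and -0.12 in UT with 2 above 0, where 43.5%, 43.7% and 48.8% of all microRNAs lay above 0. MiR-503, a late assay that restrains the cell cycle, had a mean level of -5.81 ± 0.39 (SD, n = 3) for WL against -8.57 ± 1.88 for CD, which differ by 2.76 (SE 0.90, limma adjusted p = 0.313), and had 2.55 in UL (adjusted p = 0.908). MiR-497-5p had 0.94 in WL (SE 0.41, adjusted p = 0.608) and miR-195a-5p -0.34 in UL (SE 0.41, adjusted p = 0.995). MiR-15a-5p and miR-16-5p, which act on Bcl2 and cyclins, had -0.41 (SE 0.37) and 0.42 (SE 0.40) in UT (adjusted p = 0.799 and 0.810).

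The other microRNAs known to act on fat cells, listed with earlier results of these data known, gave 0 calls as well. Of 16 measured microRNAs known to promote adipogenesis, 0 passed in UT, UL or WL, and 1, 0 and 1 had an unadjusted p under 0.05. Over all microRNAs the share with such a p was 10.1%, 2.78% and 7.14%. In UT 12 of 16 lay below 0 and 4 above, where 48.8% of all microRNAs lay above 0. The median log2 fold change of the 16 was -0.36 in UT, -0.08 in UL and near 0 in WL. Among them miR-143-3p, which is induced in differentiating adipocytes, had a mean level of 3.76 ± 0.38 (SD, n = 3) for UT against 4.82 ± 0.26 for CD, so that its log2 fold change was -1.06 (SE 0.36, limma adjusted p = 0.280). The 3p arm of miR-378, which promotes lipogenesis, had 1.48 in WL (SE 0.36, adjusted p = 0.133), 0.78 in UT (adjusted p = 0.489) and 0.65 in UL (adjusted p = 0.995). MiR-148a-3p had 0.99 in WL (SE 0.50, adjusted p = 0.720), and miR-210-3p, the microRNA of hypoxia, had -0.70 in UL (SE 0.39, adjusted p = 0.995).

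Of 18 measured microRNAs known to restrain adipogenesis, 0 passed in any of the 3 comparisons. An unadjusted p under 0.05 was reached by 2, 0 and 0 of them in UT, UL and WL, beside 10.1%, 2.78% and 7.14% of all microRNAs. The medians of the 18 were -0.14, -0.05 and -0.05. MiR-125a-5p had -0.73 in UT (SE 0.30, limma adjusted p = 0.435) and miR-344-3p 1.22 (SE 0.52, adjusted p = 0.446). MiR-27b-3p, which represses PPARγ, had 0.80 in WL (SE 0.53, adjusted p = 0.844), and miR-93-5p had 0.47 (SE 0.39, adjusted p = 0.956). In UL miR-145a-5p had -0.48 (SE 0.40) and let-7b-5p -0.43 (SE 0.38), each with an adjusted p of 0.995.

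Of 13 measured microRNAs of insulin signalling and sensitivity, 0 passed. An unadjusted p under 0.05 was reached by 2, 0 and 0 of them in UT, UL and WL, beside 10.1%, 2.78% and 7.14% of all microRNAs. In UT 11 of 13 lay below 0 and 2 above, where 48.8% of all microRNAs lay above 0. The medians of the 13 were -0.42 in UT, -0.21 in UL and -0.03 in WL. Besides miR-143-3p, which stands in both lists, miR-126a-3p had -1.19 in UT (SE 0.46, limma adjusted p = 0.395). The other arm of its hairpin, miR-126a-5p, an endothelial marker outside this list, went the opposite way in UT (1.36, SE 0.34, adjusted p = 0.0766). In WL miR-7a-5p had -1.02 (SE 0.48, adjusted p = 0.663) and miR-122-5p, of hepatocytes, -1.07 (SE 0.54, adjusted p = 0.720). In UL miR-802-5p had -0.86 (SE 0.47, adjusted p = 0.995).

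**Figure D4:**
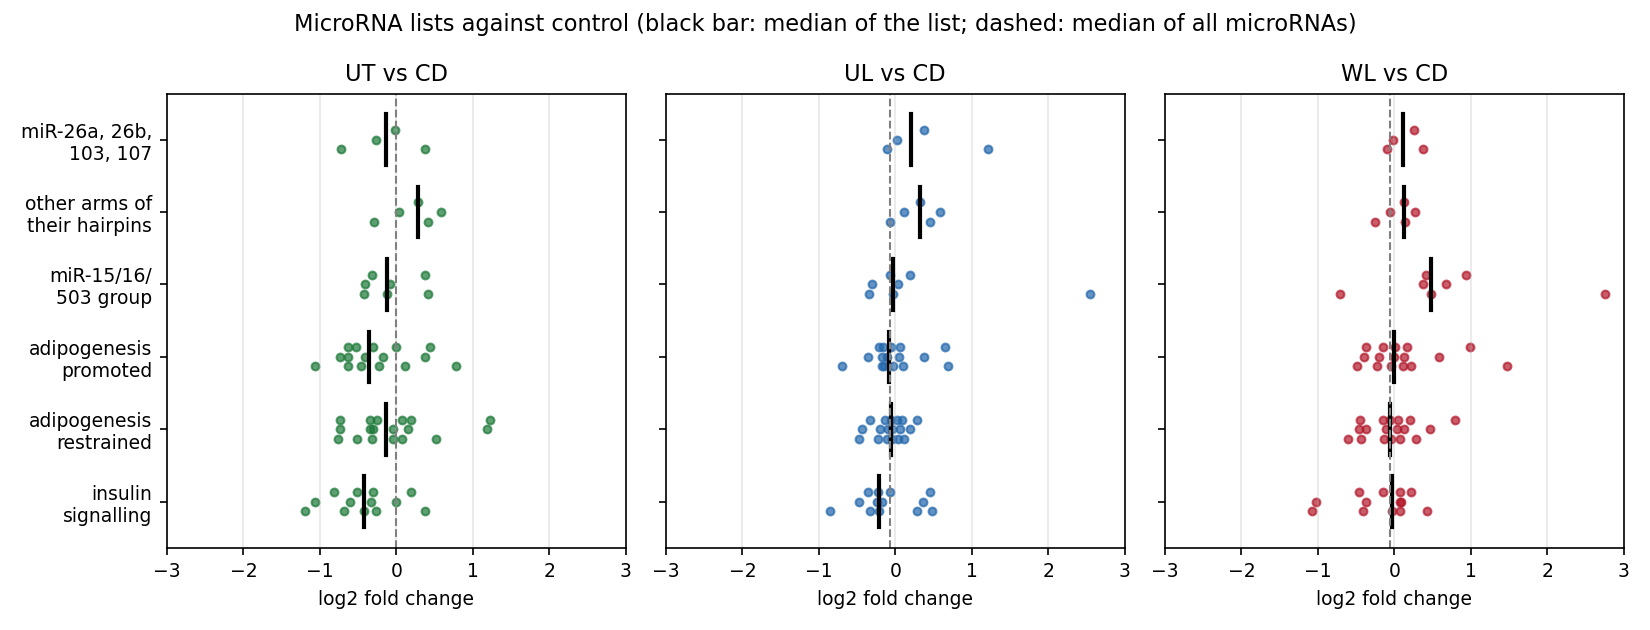
Log2 fold change against CD in UT, UL and WL for miR-26a, miR-26b, miR-103 and miR-107, the other arms of their hairpins, the relatives of miR-15, miR-16 and miR-503, and microRNAs known to promote or restrain adipogenesis or to act on insulin signalling. Each point is a microRNA, the black bar the median of its list and the dashed line the median of all microRNAs (-0.01, -0.07 and -0.06); the median of the 4 microRNAs lies at -0.14 in UT, 0.20 in UL and 0.12 in WL.

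The microRNAs whose relative level followed each of the 4 most closely over the 12 pools came from other families. Among the 465 others measured in all pools, miR-26a-5p was most like miR-1897-3p (Pearson r 0.88), miR-199b-5p (0.88) and miR-7b-5p (0.82). MiR-26b-5p was most like miR-106a-5p (0.86), let-7i-3p (0.85) and miR-18a-5p (0.83). MiR-103-3p was most like miR-98-5p (0.80), miR-28a-5p (0.77) and miR-324-5p (0.77). MiR-107-3p was most like miR-135b-5p (0.92), miR-539 (0.91) and miR-543 (0.90), values that fell to 0.85, 0.82 and 0.79 without WL 3 and UT 2. Without the same pools the values, in the order given, were 0.89, 0.80 and 0.66 for miR-26a-5p. They were 0.95, 0.89 and 0.82 for miR-26b-5p and 0.83, 0.79 and 0.76 for miR-103-3p. None of the 4 was among the 3 nearest to another. These correlations are the highest of many, over points that share pools and scaling, and are given as descriptions.

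The authors' deposited table of fold changes gives other values for these microRNAs. It is built on deposited ratios that grow with Ct, since Ct minus the log2 ratio was constant within each pool (24.74 to 25.46), so a ratio above 1 there means later Ct and less template. For miR-103-3p the authors' deposited table gives 1.86 in UT, and the ratio recomputed from the UT and CD pools was also 1.86. For miR-107-3p the authors' deposited table gives 1.20 in UL and 0.592 in WL, whereas the ratios recomputed from the pools labelled UL and WL were 0.467 and 1.36, on the other side of 1 in each case. The recomputed WL ratio, a ratio of linear means that weights the late pool WL 3 (Ct 27.22) most, reads as less template, against the log2 fold change of 0.26 given above and 0.17 from the same deposited values on the log2 scale. For miR-26a-5p it gives 1.23 in UL and 1.01 in WL, against 1.07 and 1.27 recomputed. The values reported here therefore come from the Ct table.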

How the data were processed

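Threshold cycles (Ct) of quantitative RT-PCR were analysed for 12 pools. Per the file headers, the authors deposited Ct before normalization as a score per assay, normalized values as ratios, and fold changes as ratios of group means. Per the labels' protocols, total RNA came from about 22 mg of fat pad. The PCR platform, its chemistry and threshold rule were not given in the sources used here. Of 507 rows, 1 repeat was dropped. The relative level was computed as each pool's mean Ct over the 466 complete microRNAs minus Ct, and a filter of Ct under 35 in at least 3 pools removed 0 of 504. Groups were compared with limma 3.58.1 (lmFit, eBayes, two-sided; R 4.3.3) in 1 model of the 4 groups, with Benjamini-Hochberg adjustment over the 504 and a threshold of 0.05. The script was tested on simulated data. The members and lists were chosen with earlier results of these data known. Of 64 list entries 59 were measured, 5 of them under another spelling, among these both arms of miR-378, told apart by accession. Named were the 4 microRNAs, their other arms, the 3 most alike by Pearson r, and the 2 list members with the smallest p against control. Depth has no count in RT-PCR, and the number of pools limits precision. Alternatives were median, RNU-43 and quantile scaling, filters, the deposited ratios, 2-group fits, a replicate block, array weights, trended variance, subtracting neighbouring assays, and leaving out each pool. Same-numbered pools had correlations of deviations from -0.27 to 0.26, above 0.1 in 7 of 18 pairs.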

Additional observations from a re-analysis of the deposited data

How the results depend on the processing

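For miR-26a-5p, miR-26b-5p, miR-103-3p and miR-107-3p, 0 of 576 values (24 comparisons under 24 alternatives) and 0 of 92 F tests passed a limma adjusted p of 0.05 (lowest 0.235 and 0.293). The sign of the main value was kept in 516 and turned in 33 when a pool was left out and in 27 otherwise; the cause was not tested. Turned log2 fold changes in UT against CD were, with RNU-43 scaling, 0.73 for miR-26a-5p, 0.02 for miR-103-3p and 0.47 for miR-107-3p. RNU-43 scaling also gave -0.34 for miR-26a-5p in UL against UT, 0.25 for miR-103-3p in UL against CD, -0.25 in WL against UL and -0.02 in WL against UT, and -0.19 for miR-107-3p in WL against UT. With this scaling miR-26b-5p in UT against CD kept its sign but was 1.12 (limma adjusted p = 0.249), beside 0.37 in the main fit. The values that follow turned sign. Subtracting neighbours in accession order, an alternative chosen after seeing the data, gave for miR-26a-5p -0.05 (UL against CD), 0.17 (UT against CD) and -0.22 (UL against UT), and for miR-103-3p 0.06 (UL against CD) and -0.09 (WL against UL); in table order it gave 0.27 for miR-26b-5p (UL against UT). Array weights gave for miR-26a-5p 0.11 (WL against CD), 0.04 (WL against UL) and 0.16 (WL against UT), and for miR-26b-5p 0.13 (UL against UT), 0.16 (WL against UL) and 0.29 (WL against UT). Median scaling gave 0.02 for miR-26a-5p and 0.10 for miR-26b-5p (WL against UT) and 0.13 for miR-26b-5p (UL against UT). The deposited ratios gave -0.04 for miR-26a-5p (UL against CD), and 0.08 (UL against UT) and 0.04 (WL against UT) for miR-26b-5p, and quantile normalization -0.02 for miR-103-3p (WL against UL).

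Leaving out a pool gave, for miR-26a-5p, -0.51 to 0.31 (WL against CD), -0.28 to 0.26 (UL against CD), -0.10 to 0.09 (UT against CD), -0.26 to 0.28 (UL against UT), -0.53 to 0.29 (WL against UL) and -0.49 to 0.33 (WL against UT). In the same order miR-26b-5p had -0.07 to 0.71, -0.07 to 0.66, -0.06 to 0.67, -0.26 to 0.24, -0.27 to 0.34 and -0.27 to 0.34. MiR-103-3p had -0.22 to 0.25, -0.32 to 0.00, -1.0 to -0.53, 0.40 to 0.89, -0.10 to 0.36 and 0.51 to 0.99. MiR-107-3p had -0.44 to 1.25, 0.82 to 1.66, -0.70 to 0.09, 1.12 to 1.93, -1.65 to 0.05 and -0.17 to 1.53.

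The count of microRNAs that passed over all assays was 3 in WL, 3 in UL and 7 in UT against CD, 0 in each comparison between high-fat groups and 2 in the F test. With array weights these became 6, 6, 12, 7 (UL against UT), 7 (WL against UT) and 14. With RNU-43 they were 5 (UL against CD), 12 (UT against CD), 4 (UL against UT), 1 (WL against UT) and 10 (F test). With Ct under 30 in all pools they were 0 (WL and UL against CD), 2 (UT against CD), 1 (UL against UT) and 0 (F test). With the replicate block, whose numbers the labels do not say pair the pools, they were 4 (UT against CD), 1 (UL against UT) and 4 (F test). Fits of only the groups compared gave 1 (WL against CD) and 5 (UL against UT), trended variance 1 (UL against CD) and 1 (F test), and subtracting neighbours 2 in table and 1 in accession order (UT against CD). Leaving out a pool gave 2 to 6 (WL and UL against CD), 1 to 11 (UT against CD), 0 to 8 (UL against UT), 0 to 1 (WL against UL), 0 to 12 (WL against UT) and 1 to 12 (F test). The highest counts came without CD 3 (WL and UL against CD) or without WL 3 (the other comparisons and the F test), and the lowest for UT against CD and the F test without UT 3.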

Other observations

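Among the other arms of the miR-26 and miR-103 and miR-107 hairpins, some from different families varied together, 1 pair most closely. MiR-26a-1-3p and miR-107-5p, both late assays with Ct between 27.70 and 29.88, had a Pearson r of 0.91 over the 12 pools and 0.90 without WL 3 and UT 2. This pair was chosen after the values were seen and is a description without a test. Their guides did not follow them: miR-26a-5p had an r of -0.40 with miR-26a-1-3p, and miR-107-3p had -0.34 with miR-107-5p, over the same pools. The likeness was not limited to this pair. With miR-103-1-5p and miR-103-2-5p, miR-26a-1-3p had 0.77 and 0.66 and miR-107-5p had 0.58 and 0.50. MiR-26a-2-3p had only 0.16 to 0.34 with the other passenger arms.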
